A study of Mus musculus with 4 samples.

Results

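Lipoprotein lipase, the scavenger receptors and their partners in lipid handling form the programme by which macrophages take up, store and release lipid. Of 10 genes of lipid-laden macrophages named for this purpose, 8 had rows in the authors' deposited table, which holds 16545 gene symbols: Lpl, Msr1, Marco, Scarb1, Abca1, Abcg1, Apoe and Gpnmb. Cd36 and Fabp5 had no row under their symbols or under any RefSeq accession listed for them, and are not analysed here. The genes were chosen by their group means with OHT and EtOH in that table, so their levels and fold changes are a description and carry no test of their own.

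The cells were mouse MLL-AF9 leukaemic cells on a C57BL/6 background, in which the fusion oncogene MLL-AF9 causes acute myeloid leukaemia. They were taken from bone marrow and grown in liquid culture. All samples shared the genotype Ring1a-/-;Ring1bf/f Cdkn2a-/-, that is, floxed Rnf2 (which encodes RING1B) in cells stated to lack Ring1 (RING1A) and Cdkn2a. RING1A and RING1B are the ubiquitin ligases of Polycomb repressive complex 1. A group of 2 samples was treated for 72 h with EtOH (ethanol, the vehicle) and a group of 2 with OHT (in common usage hydroxytamoxifen, used to switch on a recombinase that deletes floxed alleles). The labels title the OHT samples RingKO, that is, a Ring knockout. They do not name the recombinase, and do not say whether samples came from separate mice, cultures or clones. A p-value therefore speaks of the spread among these libraries alone, and that spread could be technical. Cells treated with OHT that lack the floxed allele were not analysed here, so OHT itself and the loss of RING1B cannot be told apart.

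The table gives 1 mean of normalised reads per group. Each mean was solved to whole reads of its 2 libraries, called A and B. A is by construction the deeper library of its group, and the letters are not linked to any numbered replicate. Libraries A and B had 6255320 and 3841243 reads with EtOH and 5687967 and 4509718 with OHT. The libraries had 3841243 to 6255320 reads, and a normalised read count is a library's reads divided by its size factor, the authors' correction for depth. The targeted gene Rnf2 was not lower with OHT, at 687 and 583 normalised reads in EtOH libraries A and B and 716 and 797 in OHT libraries A and B. Ring1 had authors' deposited means of 68.3 with EtOH and 122 with OHT, and the rows of Cdkn2a had 49.8 and 48.5 and 29.9 and 31.6, so transcripts of these genes were still counted. Which exons the floxed allele loses is not stated, so a count over the whole transcript does not check the labels. In bulk RNA, fewer cells of a type and less RNA per cell cannot be told apart.

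Lipoprotein lipase, made by macrophages as well as by fat and muscle, is a secreted enzyme that releases fatty acids from the triglyceride of lipoproteins. Scavenger receptors bind modified lipoproteins, microbes and dead cells, and most do so without the feedback by cholesterol that limits the LDL receptor. Macrophages return surplus cholesterol through the transporters ABCA1 and ABCG1, whose genes are induced by the sterol-sensing liver X receptors (LXR), and apolipoprotein E is among the acceptors. Polycomb repressive complex 1 acts mostly at promoters rich in CpG, the dinucleotide of C followed by G.

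Promoter windows of RefSeq (build GRCm38.p6), each running from 250 bases before to 50 bases after a start site, were at hand for 4 of the 8 genes, and 3 are shown because these genes were higher with OHT while their promoters differ widely in CpG. Capitals mark matches, on either strand, to GAGGAA (the core bound by the myeloid factor PU.1), CATGTG (the core of the M-box bound by MITF), CACGTG (the E-box), GGGCGG (the GC box), TATAAA (the TATA box), TGANTCA (AP-1) and AGGTCA (the half-site of LXR and other nuclear receptors).
Marco, chr1:120504975-120505274, minus strand: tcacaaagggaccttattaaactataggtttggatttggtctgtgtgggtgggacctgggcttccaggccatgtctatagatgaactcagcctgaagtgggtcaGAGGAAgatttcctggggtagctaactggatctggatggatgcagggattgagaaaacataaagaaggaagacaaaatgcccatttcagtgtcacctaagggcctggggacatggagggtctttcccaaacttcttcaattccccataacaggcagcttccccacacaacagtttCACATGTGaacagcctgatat
Abca1, chr4:53159846-53160145, minus strand: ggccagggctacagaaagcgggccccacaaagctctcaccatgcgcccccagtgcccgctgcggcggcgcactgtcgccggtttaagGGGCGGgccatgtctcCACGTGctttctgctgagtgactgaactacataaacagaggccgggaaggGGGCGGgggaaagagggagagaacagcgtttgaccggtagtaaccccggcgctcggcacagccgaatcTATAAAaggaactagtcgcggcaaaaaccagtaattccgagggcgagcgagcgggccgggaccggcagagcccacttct
Gpnmb, chr6:49036268-49036567, plus strand: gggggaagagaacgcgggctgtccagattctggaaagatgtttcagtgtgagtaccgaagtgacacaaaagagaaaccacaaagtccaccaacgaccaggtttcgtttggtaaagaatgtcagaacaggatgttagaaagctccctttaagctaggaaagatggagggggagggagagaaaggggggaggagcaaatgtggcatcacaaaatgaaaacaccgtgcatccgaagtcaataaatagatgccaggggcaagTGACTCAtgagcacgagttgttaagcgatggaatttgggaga

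The Marco window held 0 CpG, the Gpnmb window 9 and the Abca1 window 26, where the median of 32851 promoter windows was 7. The window at the Apoe start farthest upstream held 10. The TATA box lay 29 bases before the Abca1 start, and 13.6% of all windows held that motif. The E-box of Abca1 was in 7.15% of windows and the GC box in 35.7%. GAGGAA, in the Marco window 146 bases before the start, was in 28.3%, and CATGTG, whose copies on the 2 strands overlap in the Marco window, in 14.2%. The AP-1 match of Gpnmb, in 7.81% of windows, lay 8 bases after the start. AGGTCA, in 16.3% of windows, matched none of these 3, but only its exact letters were searched, so half-sites of other letters were not counted. These matches are letters in a window and do not show that a factor was bound.

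A higher mean with OHT was listed for 7 of the 8 genes and a lower one for 1, Apoe. Their median log2 fold change was 2.24, beside 0.04 over all 18061 transcripts of the deposited table. At a threshold of 0.05 the adjusted p of the authors' deposited table marked 5 of the 8 as higher (Lpl, Marco, Msr1, Abca1 and Abcg1) and 0 as lower, where 3.62% of all transcripts were marked higher and 1.85% lower (5.48% in either direction). Limma-voom on the solved reads marked 6 of the 8 as higher, Gpnmb being the addition, and 0 as lower, where it marked 9.72% of the transcripts it fitted as higher and 5.49% as lower. The solved libraries of the groups did not overlap for any of the 8, as for 51.0% of all transcripts. Nothing is read from these counts, since the same contrast was known when the genes were chosen.

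**Figure D1:**
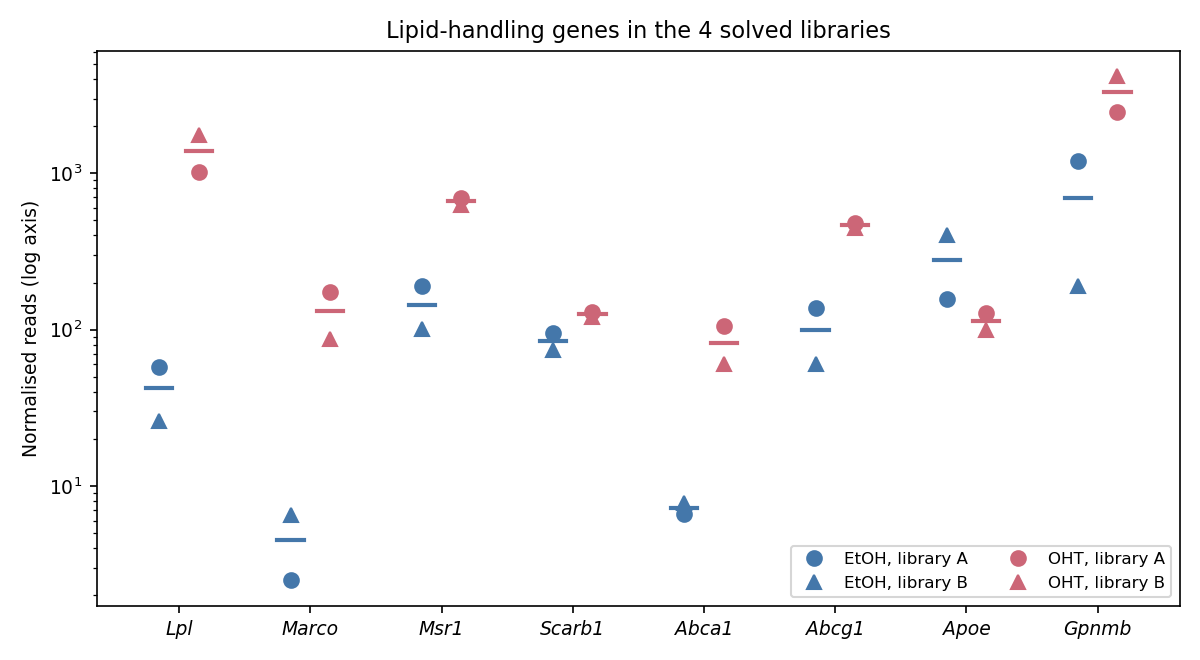
Normalised reads (log axis) of the 8 genes in each of the 4 solved libraries, with EtOH in blue, OHT in red, circles for library A, triangles for library B and bars for the group mean. Lpl and Marco have the widest gap between groups, the EtOH libraries of Gpnmb lie far apart, and Apoe is the only gene with the EtOH points above the OHT points.

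Lpl (NM_008509) had 70 and 20 reads in EtOH libraries A and B and 1208 and 1567 in OHT libraries A and B, or 58.0, 26.0, 1015 and 1749 normalised reads. Every OHT value was above every EtOH value, the lowest OHT library by 17.5 times over the highest EtOH library. The authors' deposited table lists a ratio of 32.1 with an adjusted p of 1.45e-05, the 11th largest ratio among the 18061 transcripts. By limma-voom on the solved reads the log2 fold change was 5.002 ± 0.46 (SE, n = 2 libraries per group). It was 5.66 when EtOH library A was left out and 4.52 when B was.

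Marco (NM_010766), a class A scavenger receptor of macrophages that binds bacteria and particles, was close to absent with EtOH. Its reads were 3 and 5 in EtOH libraries A and B and 208 and 78 in OHT libraries A and B, or 2.49, 6.51, 174.7 and 87.1 normalised reads. The OHT libraries were both far above the EtOH libraries, though they differed 2.01-fold between themselves. The authors' deposited ratio of 23.7 (adjusted p = 0.00206) rests on means with 1 read added per library; the ratio of reads alone, corrected for size factors, was 33.8 (exact 95% interval 16.9 to 79.1, which covers counting error only). The limma-voom log2 fold change was 4.88 ± 0.74 (SE), and 4.16 without EtOH library A.

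Msr1, the class A scavenger receptor best known for uptake of acetylated LDL, had a row for each of its RefSeq transcripts. The longer one (NM_031195) had 228 and 77 reads in EtOH libraries A and B and 832 and 561 in OHT libraries A and B, or 189, 100.3, 699 and 626 normalised reads. The OHT libraries lay close together and above both EtOH libraries. The authors' deposited ratio was 4.55 (adjusted p = 1.03e-08) and the limma-voom log2 fold change 2.20 ± 0.30 (SE). The shorter one (NM_001113326) had only 10, 4, 24 and 19 reads in the same order, a deposited ratio of 2.77 with an adjusted p of 0.510. Reads shared by the transcripts may have been lost or split in the authors' counting.

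Scarb1, the class B receptor that takes up cholesteryl ester from high-density lipoprotein, differed least. Its main row (NM_016741) had 95.4 and 74.2 normalised reads in EtOH libraries A and B and 130.2 and 121 in OHT libraries A and B. The groups did not overlap, but the lowest OHT value was only 1.26 times the highest EtOH value. The authors' deposited ratio was 1.47 with an adjusted p of 0.693, and the limma-voom log2 fold change 0.55 ± 0.31 (SE), which does not show an unchanged gene. Its other row (NM_001205083) had 19, 7, 33 and 10 reads, and there the groups overlapped. Of the 3 curated RefSeq transcripts of Scarb1, 2 had a row.

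Abca1 (NM_013454), the transporter that loads cholesterol and phospholipid onto lipid-poor apolipoprotein, had few reads with EtOH. They numbered 8 and 6 in EtOH libraries A and B against 125 and 54 in OHT libraries A and B, or 6.63, 7.81, 105.0 and 60.3 normalised reads. Both OHT libraries were above both EtOH libraries, the lowest by 7.72 times. The authors' deposited ratio was 10.1 (adjusted p = 0.00164). The ratio of reads alone was 12.1 (exact 95% interval 7.02 to 22.6), and the limma-voom log2 fold change 3.42 ± 0.58 (SE).

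Abcg1 (NM_009593), which moves cholesterol to high-density lipoprotein, had 166 and 46 reads in EtOH libraries A and B and 575 and 401 in OHT libraries A and B, or 138, 59.9, 483 and 448 normalised reads. The OHT libraries were nearly equal, and the EtOH libraries differed 2.30-fold. The authors' deposited ratio was 4.67 (adjusted p = 5.88e-08). The limma-voom log2 fold change was 2.28 ± 0.35 (SE), with 2.94 when EtOH library A was left out and 1.76 when B was. Abca1 and Abcg1 are both LXR targets, yet per kilobase of transcript the mean level of Abcg1 was 16.9 normalised reads with EtOH and 79.8 with OHT, and that of Abca1 0.704 and 8.05.

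Apoe (NM_009696), a ligand of the LDL receptor family that macrophages secrete, was the gene with a lower mean under OHT. It had 188 and 307 reads in EtOH libraries A and B and 152 and 89 in OHT libraries A and B, or 156, 399.7, 128 and 99.4 normalised reads. EtOH library A lay much nearer to the OHT libraries than to EtOH library B. The authors' deposited means of 279 and 114 have an adjusted p of 0.816. The limma-voom log2 fold change was -1.06 ± 0.43 (SE), with -1.81 when EtOH library A was left out and -0.45 when B was, so its size hung on which EtOH library was kept. Of the 4 curated RefSeq transcripts of Apoe, 1 had a row.

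Gpnmb (NM_053110), a transmembrane glycoprotein of lysosome-rich and lipid-laden macrophages, had 1443 and 145 reads in EtOH libraries A and B and 2913 and 3751 in OHT libraries A and B, or 1197, 189, 2447 and 4188 normalised reads. Both OHT libraries were above both EtOH libraries. The EtOH libraries differed 6.34-fold, and the lower OHT library held 2.04 times the level of EtOH library A. The authors' deposited ratio was 4.78 with an adjusted p of 0.128. The limma-voom log2 fold change was 2.65 ± 0.63 (SE), with 4.10 when EtOH library A was left out and 1.43 when B was.

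**Figure D2:**
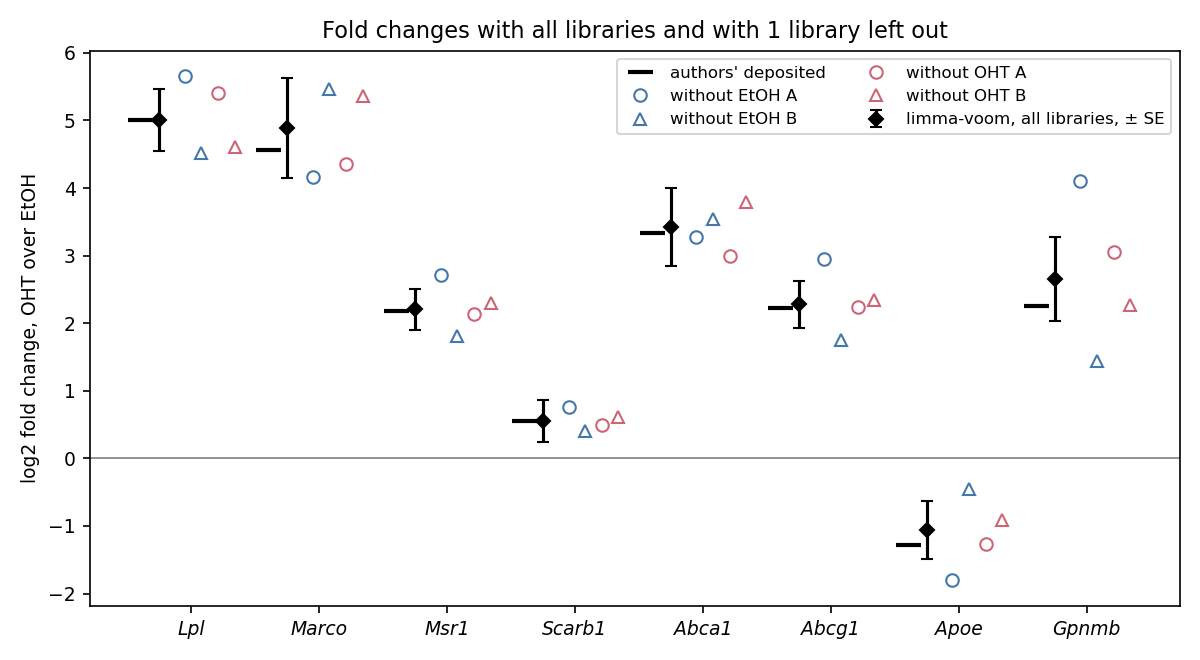
log2 fold change of OHT over EtOH for the 8 genes: the authors' deposited value (dash), limma-voom on the 4 solved libraries with its SE (diamond) and limma-voom without 1 library (open symbols). Directions are the same in all the fits shown, while Gpnmb ranges from 1.43 to 4.10 and Apoe from -1.81 to -0.45 with the EtOH library left out.

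Levels were set against each other per kilobase of transcript, using lengths of the GENCODE vM21 transcripts matched by accession. With EtOH, Apoe (111 and 284 normalised reads per kilobase in libraries A and B) and Gpnmb (323 and 51.0) had the highest means, and their values overlapped. Msr1 (52.0 and 27.6), whose values overlapped with those of Gpnmb, and Scarb1 (37.8 and 29.4) came next by the mean and overlapped too. Abcg1 was at 23.6 and 10.3 and Lpl at 14.1 and 6.33, again overlapping, with Marco at 1.29 and 3.38 and Abca1 lowest at 0.646 and 0.761.

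With OHT the order was another one. Gpnmb stood first at 661 and 1131 normalised reads per kilobase in OHT libraries A and B, Lpl next at 247 and 425, and Msr1 after it at 192 and 172. Apoe (90.7 and 70.6), Abcg1 (82.8 and 76.8) and Marco (90.7 and 45.2) overlapped, and Scarb1 (51.6 and 47.8) overlapped with Marco. Abca1 stayed lowest at 10.2 and 5.87. Lpl thus stood sixth by the group mean with EtOH and second with OHT.

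The EtOH libraries differed from each other for most of the 8 genes, in a measure the choice of genes did not rest on. Of the 5 genes with an EtOH mean of at least 50, Gpnmb differed more between EtOH libraries than 99.9% of the 8147 transcripts at that level, Apoe more than 98.0%, Abcg1 more than 96.9%, Msr1 more than 93.2% and Scarb1 more than 54.3%. Gpnmb, Abcg1, Msr1 and Scarb1 were higher in EtOH library A, as was Lpl below that level, and Apoe, Marco and Abca1 in EtOH library B. At that level 56.2% of all transcripts were higher in EtOH library A. In the OHT group Abcg1, Msr1 and Scarb1 differed by 1.08 to 1.12 times between libraries, and Lpl, Marco, Abca1 and Gpnmb by 1.71 to 2.01 times. Lpl and Gpnmb were higher in OHT library B and the other 6 in OHT library A. Of the 8470 transcripts with an OHT mean of at least 50, 42.9% were higher in OHT library A. Marco differed more between OHT libraries than 96.8% of these, Lpl and Abca1 more than 94.3% and Gpnmb more than 94.2%. Apoe differed more than 73.5%, Msr1 more than 39.5%, Abcg1 more than 27.2% and Scarb1 more than 26.8%.

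**Figure D3:**
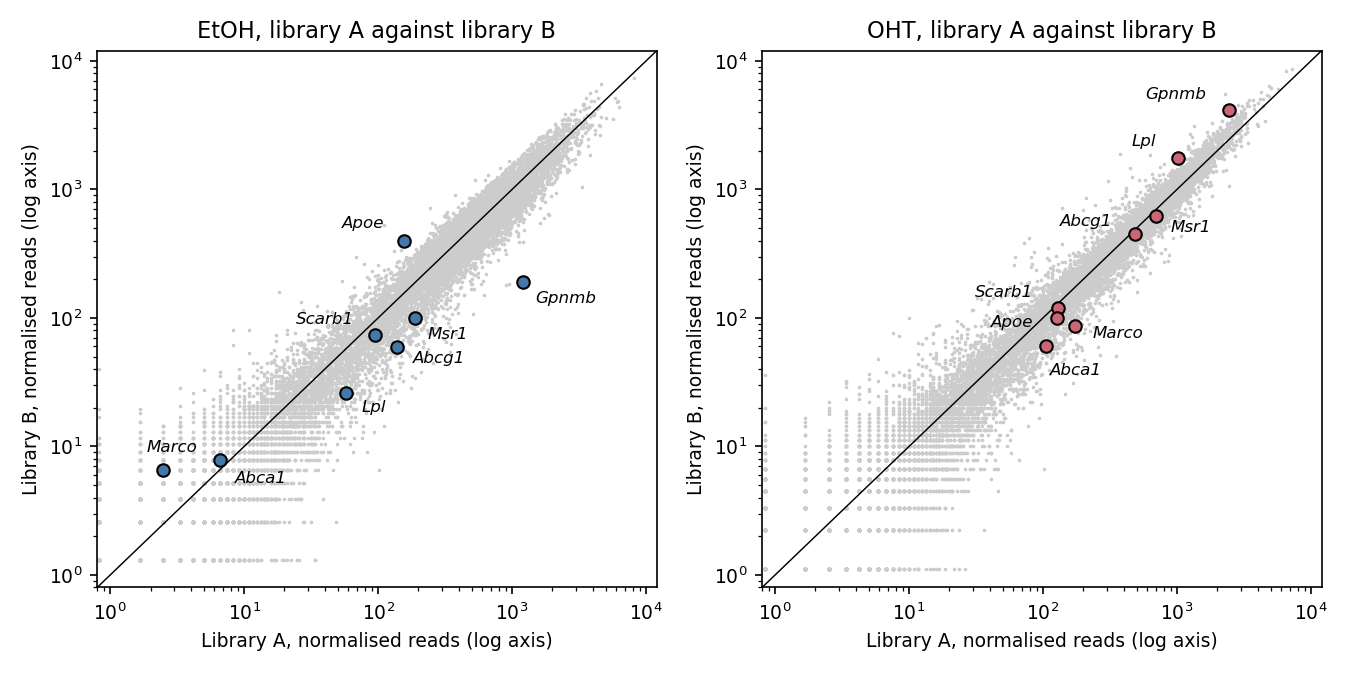
Normalised reads (log axes) in library A against library B, for EtOH on the left and OHT on the right, with all transcripts that had reads in both libraries in grey and the 8 genes as large points; the line marks equal values. In the EtOH panel Gpnmb lies far below the line (1197 against 189) and Apoe above it (156 against 399.7), while in the OHT panel Gpnmb and Lpl lie above it.

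Most macrophage markers had a higher mean with OHT, and their part in the values above was not tested. Of 14 monocyte and macrophage markers, 5 rose in the authors' deposited table, among them Mertk and the C1q chains, none fell and 9 were not called. Over all transcripts 3.62% were called higher and 1.85% lower. A positive log2 fold change was listed for 13 of the 14 markers, beside 51.7% of all transcripts. The C1q chains were known as rising when the list was written. The markers summed to 4918 (A) and 2168 (B) normalised reads with EtOH and 7725 (A) and 8432 (B) with OHT. Of the 14, 11 were higher in EtOH library A than in EtOH library B, beside 56.2% of all transcripts with an EtOH mean of at least 50. The 14 were not held to that level, so these shares are not of like genes. Among the 11 was the adhesion receptor F4/80, listed as Emr1 (1882 and 634 normalised reads). Mertk, which binds dying cells, had 5.80 and 0 normalised reads with EtOH and 63.0 and 40.2 with OHT, and its limma-voom log2 fold change of 4.68 was 6.31 when EtOH library A was left out and 3.06 when B was. For C1qa these values were 4.05, 5.14 and 2.98, and for C1qc 5.84, 6.67 and 5.002.

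Adipocyte markers were scarce. The 5 measured adipocyte markers summed to 2.49 and 3.91 normalised reads with EtOH and 34.4 and 19.0 with OHT, and none passed the test of the authors' deposited table; their part was not tested either. Limma-voom fitted 1 of the 5, Fabp4, and called it higher (adjusted p = 0.00440). Fabp4 had no reads with EtOH and passed the filter on low reads only through the OHT libraries, so nothing is read from that call. The 4 endothelial markers summed to 177 and 49.5 with EtOH and 230.1 and 414 with OHT, mostly from Vwf, and the 4 stromal markers to 3.32 and 9.11 and to 34.4 and 30.1, with Col1a1 called higher. The 5 osteoclast markers went from 25.7 and 5.21 to 117 and 199, with Dcstamp called higher, and the 3 erythroid markers from 17.4 and 16.9 to 58.8 and 91.5, with Epor called higher. The 5 lymphocyte markers stayed at 4.98 to 11.8. The 9 neutrophil markers summed to 4256 and 6586 with EtOH and 7351 and 6425 with OHT, and 1, Mmp8, was called higher. The authors' deposited table called 3.62% of all transcripts higher, and limma-voom 9.72% of those it fitted. Over all 49 measured cell markers limma-voom, which fitted 30, called 14 higher, against 9 (18.4%) in the authors' deposited table. Its additions were Csf1r, Cd68, Fabp4, Atp6v0d2 and Vwf, the last with a log2 fold change of 1.87 (adjusted p = 0.0443) that was 3.01 when EtOH library A was left out and 0.95 (adjusted p = 0.122) when B was. By limma-voom Mmp8 lost its call without EtOH library B (adjusted p = 0.0664) or OHT library B (0.0590), and Col1a1 without OHT library A (0.0572), while the log2 fold change of Dcstamp, 4.16, was 5.01 without EtOH library A and 3.34 without B. Calls not credited to limma-voom are those of the authors' deposited table.

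Other genes of the same pathways were taken from 10 lists, without the 8 genes. By the adjusted p of the authors' deposited table, 15 of 140 measured genes rose (10.7%) and 2 fell (1.43%), beside 3.62% and 1.85% of all transcripts. Their median log2 fold change was 0.43, beside 0.04 over all transcripts, and 17 had at most 3 reads in each group. Limma-voom, which fitted 91 of them, called 25 higher and 2 lower. Of the 15 that rose, 14 were higher in EtOH library A than in EtOH library B. Among those 14, the normalised reads of Fabp3 (9.12 and 9.11), Rxra (228 and 211) and Stab1 (198 and 185) were nearly equal. Of all transcripts with an EtOH mean of at least 50, 56.2% were higher in EtOH library A. Some of the 15, such as Fabp3, were below that level, so these shares are not of like genes.

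By the adjusted p of the authors' deposited table, 1 of 16 lipases and lipase partners rose, none fell, and the median log2 fold change was -0.01. The riser was Apoc2, the apolipoprotein that activates lipoprotein lipase. It had 37.3 and 70.3 normalised reads in EtOH libraries A and B and 237 and 154 in OHT libraries A and B (authors' deposited ratio 3.58, adjusted p = 0.00957). Limma-voom, which fitted 10 of the 16, called 2 higher, Apoc2 (adjusted p = 0.0113) and the endothelial lipase gene Lipg (log2 fold change 0.79, adjusted p = 0.0426).

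Of 15 other scavenger receptors 2 rose and none fell, with a median of 0.53 in the authors' deposited table. Stab1, a scavenger receptor of tissue macrophages and sinusoidal endothelium, went from 198 and 185 normalised reads to 879 and 649 (authors' deposited ratio 3.97, adjusted p = 7.50e-06). Scarb2, the lysosomal relative of Scarb1 that delivers glucocerebrosidase, went from 410 and 301 to 738 and 826 (authors' deposited ratio 2.20, adjusted p = 0.00862).

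Of 11 lipoprotein receptor genes and their regulators 4 rose and none fell, with a median of 0.17 in the authors' deposited table. The endocytic receptor Lrp1, which binds APOE, had 1110 and 456 normalised reads with EtOH and 3375 and 2284 with OHT (authors' deposited ratio 3.61, adjusted p = 0.0240). By limma-voom a log2 fold change of 1.94 became 2.59 when EtOH library A was left out and 1.31 when B was. Sorl1, a sorting receptor, rose 2.18-fold (adjusted p = 0.00254) and Lrpap1, the chaperone of this receptor family, 2.19-fold (adjusted p = 0.00680) by the authors' deposited table. Mylip, the LXR-induced ligase that degrades the LDL receptor, went from 187 and 74.2 to 491 and 397 normalised reads (authors' deposited ratio 3.39, adjusted p = 9.39e-04). By limma-voom the log2 fold change of 1.83 became 2.57 when EtOH library A was left out and 1.25 when B was.

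By the adjusted p of the authors' deposited table, 3 of 14 LXR, RXR and PPAR receptors and LXR targets rose, Mylip among them, and none fell; the median was 0.45. Rxra, the nuclear receptor that pairs with LXR and PPAR, had 228 and 211 normalised reads in EtOH libraries A and B and 946 and 893 in OHT libraries A and B. The libraries agreed closely within each group, and the authors' deposited ratio was 4.17 (adjusted p = 5.98e-09). The small GTPase gene Arl4c, an LXR target, rose 2.43-fold (adjusted p = 0.00141) by the authors' deposited table. Other LXR targets of this list were not called there. Their authors' deposited ratios were 1.20 for Srebf1, 1.37 for Lpcat3, 1.61 for Scd1, 1.37 for Scd2 and, on few reads, 1.23 for Abcg5. Scd1 had 10.8 and 80.7 normalised reads in EtOH libraries A and B and 89.9 and 59.2 in OHT libraries A and B. Its groups thus overlapped, and its ratio is loosely set. The row of the LXR gene Nr1h2 had only 2 reads in each group, and the other LXR gene, Nr1h3, had no row. Whether reads of Nr1h2 were lost in the authors' counting was not tested, so the level of LXR is not read from this row.

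Of 20 genes of sterol transport within cells and other ABC transporters 1 rose and 1 fell, and the median was 0.41, in the authors' deposited table. They were the paired enzymes that esterify cholesterol. Soat1, the form of macrophages, had 1037 and 573 normalised reads with EtOH and 1707 and 1542 with OHT (authors' deposited ratio 2.02, adjusted p = 0.0382); by limma-voom its adjusted p was 0.0282, and this became 0.0741 with EtOH library B left out and 0.0576 with OHT library A left out. Soat2, the form of liver and intestine, went the other way, from 651 and 723 to 180 and 167 (3.94-fold lower in the authors' deposited table, adjusted p = 8.78e-08).

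By the adjusted p of the authors' deposited table, none of 13 lipid droplet genes passed the test, with a median of -0.18, and limma-voom called none of the 8 it fitted. Plin2, the coat protein of lipid droplets, had 1903 and 1977 normalised reads with EtOH and 2168 and 2769 with OHT (adjusted p = 0.796 in the authors' deposited table). Plin3 was at 922 and 676 and at 1205 and 1225 (adjusted p = 0.345).

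By the adjusted p of the authors' deposited table, 1 of 18 genes that take up, bind or activate fatty acids rose and 1 fell, with a median of 0.42. Fabp3, the fatty acid binding protein of heart, had 9.12 and 9.11 normalised reads with EtOH and 152 and 152 with OHT (authors' deposited ratio 15.01, adjusted p = 5.21e-12). Slc27a2, a fatty acid transporter and very long chain acyl-CoA synthetase, had 203 and 303 normalised reads with EtOH and 38.6 and 87.1 with OHT (3.98-fold lower in the authors' deposited table, adjusted p = 0.00715). By limma-voom a log2 fold change of -2.10 became -1.48 without OHT library A.

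Of 16 other genes of lipid-associated macrophages 3 rose and none fell, with a median of 0.77 and 15 values above 0, in the authors' deposited table. The integrin Itgax (CD11c) went from 98.7 and 79.4 normalised reads to 625 and 528 (authors' deposited ratio 6.41, adjusted p = 1.13e-12). The lysosomal protease legumain (Lgmn), known as rising when the list was written, went from 236 and 53.4 to 702 and 969 (authors' deposited ratio 5.73, adjusted p = 4.75e-04), with a limma-voom log2 fold change of 2.73 that was 3.94 when EtOH library A was left out and 1.80 when B was. Spp1, which encodes osteopontin, had 35.7 and 6.51 normalised reads with EtOH and 68.9 and 87.1 with OHT (authors' deposited ratio 3.56, adjusted p = 0.0380). By limma-voom a log2 fold change of 2.11 became 3.43 when EtOH library A was left out and 1.10 when B was, where it was not called (adjusted p = 0.131).

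Of 10 apolipoprotein and plasma lipid transfer genes 1 rose in the authors' deposited table, Clu, with a median of 0.64, and none fell. Clu, a secreted chaperone found on high-density lipoprotein, was known as rising when the list was written. It had 9.12 and 0 normalised reads with EtOH and 118 and 243 with OHT (authors' deposited ratio 32.2, adjusted p = 0.00482). By limma-voom a log2 fold change of 5.93 became 7.97 when EtOH library A was left out, 4.10 when EtOH library B was, and 5.30 when OHT library B was. None of 8 genes of the MITF family and of pigment organelles, related to Gpnmb, passed the test, with a median of 0.65 in the authors' deposited table. Tfec, a member of that family, had 194 and 327 normalised reads with EtOH and 809 and 343 with OHT, and the lysosomal channel gene Mcoln1 had 346 and 262 and 465 and 469.

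**Figure D4:**
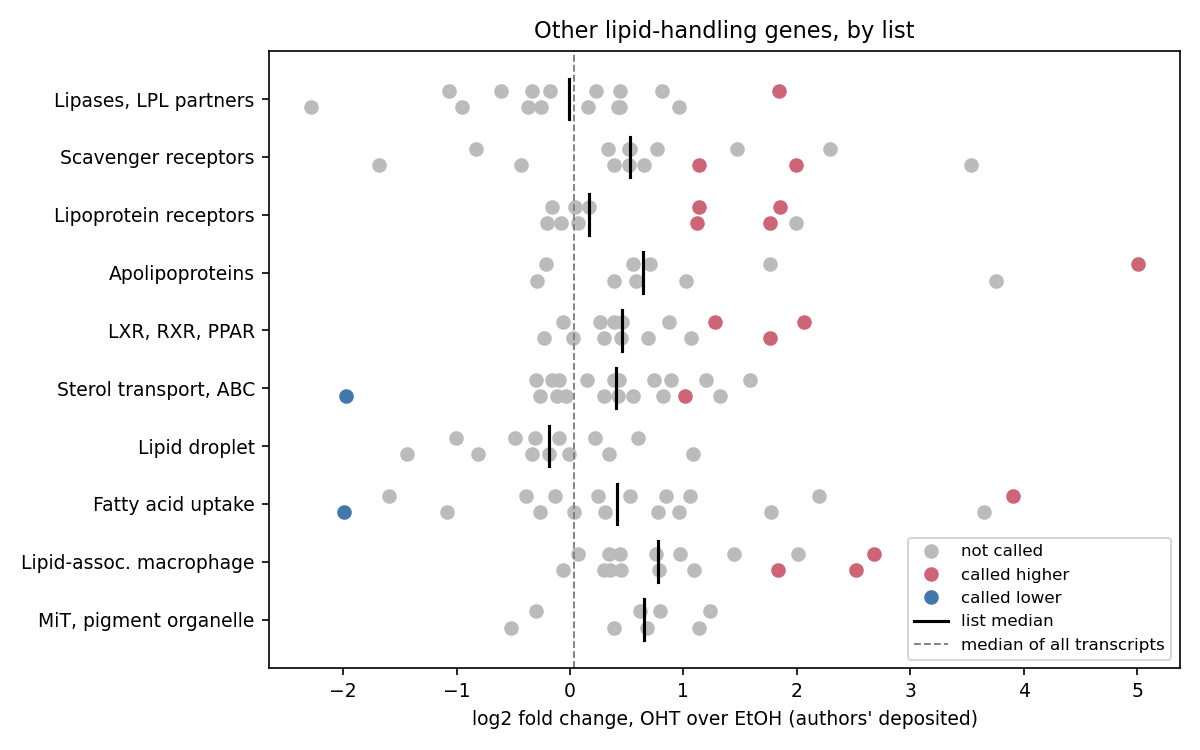
log2 fold change of OHT over EtOH in the authors' deposited table for 140 other lipid-handling genes in 10 lists, red for those called higher, blue for those called lower and grey for the rest; black bars are list medians and the dashed line is the median of all transcripts (0.04). The 15 genes in red are spread over 8 lists, and Mylip, which is in 2 lists, is drawn in both. The lipid droplet and pigment organelle lists hold no call, and the 2 blue points are Soat2 and Slc27a2.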

How the data were processed

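RNA was isolated with the Rneasy Plus Micro kit and sequenced from libraries of the TruSeq RNA kit, which does not mark strand, per the labels' protocols; reads of overlapping or antisense genes cannot be told apart. TopHat, DESeq and build mm9 are listed, per the submitters' processing notes, without versions or roles. The deposited table holds 18061 transcripts with a signal per group (baseMean, per the file headers), a deposited ratio (OHT over EtOH), its deposited log2 and a deposited p-value with an adjusted p. The deposited adjusted p equals a Benjamini-Hochberg adjustment over the table to within 2.63e-06.

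The design assumed counts per sample where given; with a table of the authors' own comparison, its adjusted p under 0.05 was used. Each group mean was solved for the whole read numbers of its 2 libraries, given that 1 had been added to both. The solution was unique for 100% of means, and the median ratios of the solved reads, computed as for size factors, matched the solved size factors (1.21 and 0.768 for EtOH, 1.19 and 0.896 for OHT) to within 4.1e-11 in relative terms. Solved reads without the added read were fitted with limma 3.58.1 (voom, R 4.3.3) by group, keeping 11338 transcripts that reached 10 reads in 2 libraries, with 2 residual degrees of freedom. Both steps were checked on simulated data. Some fitted genes, such as Marco, Abca1, Pltp and Fabp4, reached 10 reads in the OHT libraries only. Exact 95% intervals of read ratios, and the floor of 3 reads, cover counting error only.

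A symbol with several rows stands for the row with the highest mean. The members, lists and tests were chosen with earlier results of these data known. Named genes are the members, up to 4 called genes per lipid list with the smallest adjusted p or else the 2 with the highest mean, and the called markers and 2 most abundant markers per cell type, given as sums here except where named. Nr1h2, Nr1h3 and the uncalled LXR targets of their list were named in addition. No coordinates of the mm9 data were used; promoter positions are those of RefSeq's GRCm38.p6. The values of 1 marker gene are not reported here.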

Additional observations from a re-analysis of the deposited data

How the results depend on the processing

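Limma-voom on the solved reads was the alternative to the authors' deposited test, with other scalings, no filter on low reads, transcripts of a symbol summed, and 1 library left out; a library left alone in its group is then assumed to vary like the others. The log2 fold changes of the 8 genes kept their direction in all 88 alternative values. With a pseudocount of 10 on the group means that of Marco was 3.19 and that of Abca1 2.36. Gpnmb was called higher by every limma-voom version run. The number of the 8 called lower was 0 in the authors' deposited table and 1 (Apoe) without a filter, and 0 to 1 with 1 library left out. Of the 140 other lipid genes, 15 were called higher in the authors' deposited table, 25 by limma-voom, 26 scaled by total reads, 27 scaled by median ratio, 32 without a filter, 25 with transcripts summed and 20 to 32 with 1 library left out. The 2 called lower became 2 to 4 with 1 library left out. Over all transcripts the 654 called higher became 1102, 1168, 1233, 1646 and 1110 in the same order and 795 to 1597 with 1 library left out, and the 335 called lower became 623, 488, 524, 800 and 629, and 133 to 1075. The cause of these differences was not tested. No paired analysis was possible because the columns carry no replicate numbers. With few reads, such as the 8 of Marco and 14 of Abca1 with EtOH, counting error alone leaves a wide range for the ratio.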

Other observations

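Among lipid genes with no reads with EtOH, the 2 with the most reads with OHT were picked out after their values were seen. Pltp, the phospholipid transfer protein and a known LXR target, had 0 reads in both EtOH libraries and 16 and 12 in OHT libraries A and B. Against a floor of 3 reads over the EtOH group, with the OHT reads taken as exact, this was 8.83-fold higher. The exact interval of its read ratio began lower, at 6.72 (adjusted p = 0.09999 in the authors' deposited table). Fabp4, the fatty acid binding protein of adipocytes and macrophages, had 0 reads with EtOH and 15 and 11 with OHT. This was 8.20-fold higher on the same floor, and its exact interval began at 6.21 (adjusted p = 0.130 in that table). Limma-voom called both higher, with an adjusted p of 0.00404 for Pltp and 0.00440 for Fabp4. Both passed its filter on low reads only through the OHT libraries and were picked by the same contrast. These calls are therefore a description and carry no support.

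Genes of macrophage fusion and bone resorption were low with EtOH. Dcstamp, needed for the fusion of osteoclasts, had 2 and 0 reads in EtOH libraries A and B and 18 and 26 in OHT libraries A and B, and the authors' deposited table lists an adjusted p of 0.0285. Its limma-voom log2 fold change of 4.16 was 5.01 without EtOH library A and 3.34 without B. Atp6v0d2, a proton pump subunit of osteoclasts and macrophages, had 24 and 2 reads with EtOH and 90 and 141 with OHT (adjusted p = 0.0814 in that table). Limma-voom called Atp6v0d2 higher (log2 fold change 3.55, adjusted p = 0.0155) and also with any 1 library left out, at 5.02 without EtOH library A and 2.38 without B.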
